A study of Mus musculus with 79 samples.

Results

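Nuclei of VIP interneurons that had received the potassium channel Kir2.1 were compared with VIP nuclei of mice given no virus, across all genes. VIP interneurons are cortical GABAergic cells named for vasoactive intestinal peptide, and they mainly inhibit other interneurons. Kir2.1, encoded by Kcnj2, is an inwardly rectifying channel that holds a neuron near its resting potential, so a neuron that overexpresses it fires less. Neurons adjust many genes to their own firing, first a wave of immediate early transcription factors and then later genes such as neuropeptides and secreted factors.

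The comparison used 13 of the 79 libraries of the series, chosen by their titles: 10 of Kir2.1-transduced VIP nuclei and 3 of VIP nuclei without AAV (adeno-associated virus). The first group came from mice injected in the visual cortex with AAV-Syn1-Kir2.1-2a-mScarlet-KASH, in which the neuronal Syn1 promoter drives the channel together with a red fluorescent protein carrying a KASH nuclear anchor. The no-AAV group has no injection in its label. The 9 libraries of VIP nuclei transduced with a matching vector, whose channel the label gives as Kir2.1(Mutant), and the 10 of VIP nuclei from Kir2.1-injected mice that were not transduced, were read beside them. All mice were wt/ki for both the INTACT and the VIP Cre allele, which together tag the nuclei of Cre-expressing VIP cells for sorting, and all libraries were labelled with 10 days of dark housing. Per the labels' protocols, injections were made at postnatal days 55 to 60, darkness began 3 days later, and each library was made from 50 to 100 sorted nuclei with 17 cycles of PCR. The same protocol text covers every library and describes injection for all animals and harvest either in darkness or following light, and the labels of single libraries were followed. The Syn1 promoter is active in neurons at large, and the series also holds libraries titled as transduced neurons with Kir2.1, not used here. By those titles, the vector was not confined to nuclei sorted as VIP.

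Total counts ran from 4265542 to 8239394 in the Kir2.1 libraries and from 4751693 to 6215240 in the no-AAV libraries. Kir2.1 libraries 1 and 6 stood apart, with correlations to their group's median profile of 0.881 and 0.904, while the no-AAV libraries had 0.939 to 0.948. Each median includes the library itself, which raises the values more in a group of 3 than of 10, so the groups are not alike here. All 3 no-AAV libraries were labelled male and had at most 1.81 CPM of Xist, the RNA of the inactive X chromosome. Of the 10 Kir2.1 libraries, 6 were labelled female and 6 had Xist above 100 CPM, but in 4 of the 10 the Xist level went against the label. Injection, vector, channel and part of the sex difference therefore cannot be told apart in this comparison alone. VIP identity was present in both groups: all 22 VIP-class marker genes were detected, and their summed level was 9216 to 15686 CPM in Kir2.1 libraries and 16956 to 20453 CPM in no-AAV libraries. The summed ranges did not overlap, but without Vip itself the sums were 8489 to 15007 CPM and 12396 to 14363 CPM, which overlap. Of the 22, 3 were called lower, Vip, Crh and Pthlh, beside 0.151% of all genes tested, and the list's median log2 fold change was -0.40. In bulk samples, fewer cells of a type and less RNA per cell cannot be told apart.

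Of 21207 genes tested, 15 were higher and 32 lower in Kir2.1 nuclei (edgeR quasi-likelihood F test, Benjamini-Hochberg adjusted p under 0.05), which is 0.0707% and 0.151% of the genes tested, and 0.222% together. At an unadjusted p under 0.05 there were 1959 genes. By p-value the first higher genes were Kcnj2, Igkc, the overlapping Gm30211 and Syne2, and the first lower genes were Cnmd, Mir670hg, Pcsk1, Dlx1, Penk and Pcdh8. The 2 groups did not overlap for 10 of the 15 higher and 26 of the 32 lower genes, where 0.618% of all genes tested lay wholly higher and 0.74% wholly lower in Kir2.1 libraries. The genes were called for that same difference, so nothing is read from this count. The number of calls rested on the few controls: 22, 17 and 19 genes were called without no-AAV library 1, 2 or 3, and Kcnj2, Cnmd, Mir670hg, Pcsk1, Dlx1, Penk, Pcdh8 and Cp were called under all 22 alternative settings. In male-labelled libraries 9 of the 15 and 14 of the 32 were called, without Pthlh and Dlx6os1 (adjusted p = 0.391 and 0.153), and in a fit of the 2 groups alone 21 of the 47. The median log2 fold change of all genes was 0.10.

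**Figure D1:**
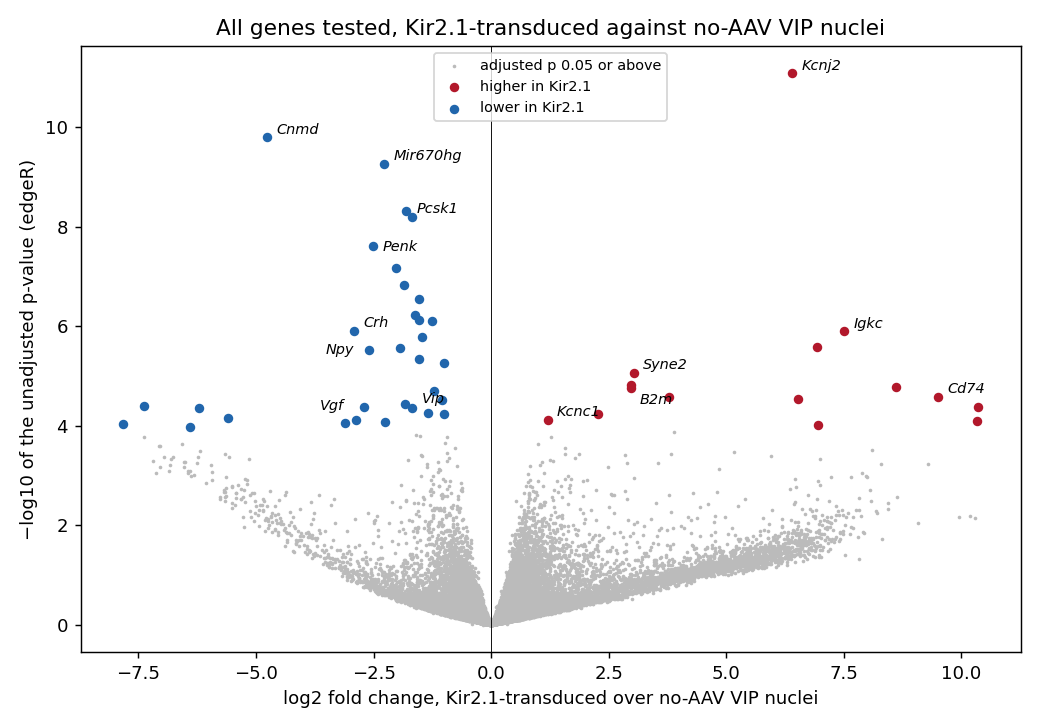
Each point is 1 gene, with the log2 fold change of Kir2.1-transduced over no-AAV VIP nuclei on the x axis and −log10 of the unadjusted edgeR p-value on the y axis. The 15 red and 32 blue points had an adjusted p under 0.05, and Kcnj2 and Cnmd stand highest.

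The tests against the mutant vector separated the calls by direction. Of the 32 genes lower than in no-AAV nuclei, 30 were also lower in Kir2.1 than in mutant-transduced nuclei, where 1.03% of all genes tested were called lower and 1.39% called in either direction. Of the 15 higher genes, 1 was also higher than in mutant nuclei, against 0.354% of all genes. Against non-transduced nuclei of the Kir2.1-injected mice, 27 of the 32 were lower and 3 of the 15 higher, where 0.599% and 0.17% of all genes were called, 0.769% together. The 3 higher genes were Kcnj2, which is the channel gene of the vector itself, Syne2 and Kcnc1. These tests use the same 10 Kir2.1 libraries, so they are not independent of the first one. Mutant against no-AAV nuclei gave 6 higher and 0 lower calls, 0.0283% and 0% of genes, with 1969 genes at an unadjusted p under 0.05. The lower count was 1 by DESeq2, in the 2 groups alone and in male-labelled libraries. With the replicate number as a block it was 16, beside 18 higher. That comparison shares its 3 control libraries with the main one.

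The transgene was read first. Kcnj2 (chromosome 11, 111066164 to 111076821, plus strand, GRCm38) had 266 to 925 CPM (median 593) in Kir2.1 libraries and 279 to 1189 CPM (median 814) in mutant libraries, against 5.58, 0 and 15.3 CPM in no-AAV libraries. All 10 Kir2.1 libraries lay above all controls (log2 fold change 6.41 ± 0.73 (SE), adjusted p = 1.75e-07), and the mutant libraries likewise (log2 fold change 6.77 ± 0.74 (SE), adjusted p = 5.74e-08). Both vectors gave levels that did not pass a test between them (log2 fold change -0.36 ± 0.33 (SE), adjusted p = 0.808). Reads of the vector and of the mouse gene were not told apart. Syne2, which encodes a nesprin, a protein family anchored in the nuclear envelope by a KASH domain, had 64.7 to 132 CPM (median 89.6) in Kir2.1 and 94.2 to 252 CPM (median 118) in mutant libraries, against 3.79, 29.5 and 0.822 CPM without AAV. Its increase passed the test for both vectors (3.05 ± 0.62 on the log2 scale for Kir2.1, adjusted p = 0.00876, and 3.52 ± 0.64 for the mutant, adjusted p = 0.0118). The Kir2.1 call was lost without no-AAV library 1 or 3 (adjusted p = 0.135 and 0.131) and in male-labelled libraries (0.0911). Non-transduced nuclei of Kir2.1-injected mice had a mean of 9.18 CPM of Syne2. Kir2.1 nuclei were higher than these (log2 fold change 3.36 ± 0.37 (SE), adjusted p = 3.14e-08). Whether reads of the vector's KASH anchor were counted as Syne2 was not tested. Of the other inward rectifiers, Kcnj4 had 0 to 4.15 CPM (median 0.0612) in Kir2.1 libraries against 0, 0.820 and 0.822 CPM without AAV, and Kcnj12 had 1.10 to 37.6 CPM (median 20.6) against 3.79, 16.9 and 30.2 CPM. Of 11 inward rectifier genes tested, 1 was called, Kcnj2 itself, where 0.222% of all genes tested were called in either direction.

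Peptide genes formed a group among the lower calls. Of 21 neuropeptide and secreted-factor genes tested, 5 fell and 0 rose, where 0.151% of all genes tested were called lower and 0.0707% higher. The list's median log2 fold change was -0.55 beside 0.10 for all genes. This list, like the others, was chosen with earlier results of these data known. Penk, the precursor of the enkephalin opioid peptides, had 53.1 to 236 CPM (median 118) in Kir2.1 libraries and 73.2 to 969 CPM (median 617) in mutant libraries, against 696, 1022 and 581 CPM in no-AAV libraries. Every Kir2.1 library was below every control (log2 fold change -2.51 ± 0.38 (SE), adjusted p = 8.47e-05). Against mutant nuclei Penk was also lower (log2 fold change -2.05 ± 0.30 (SE), adjusted p = 1.03e-05), and mutant against no-AAV nuclei did not pass (log2 fold change -0.46 ± 0.42 (SE), adjusted p = 0.758). The A830012C17Rik transcript on the opposite strand overlaps Penk and was called as well; without a stated use of strand their reads cannot be separated.

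Crh, which encodes corticotropin-releasing hormone and marks a subset of VIP cells, had 3.76 to 59.8 CPM (median 22.9) in Kir2.1 libraries, against 166, 279 and 80.8 CPM without AAV. The groups did not overlap (log2 fold change -2.91 ± 0.53 (SE), adjusted p = 0.00190), and the direct test against the mutant passed too (log2 fold change -2.59 ± 0.43 (SE), adjusted p = 1.04e-04). Without no-AAV library 2, the highest control, the adjusted p of Crh was 0.113. Npy, neuropeptide Y, had 4.09 to 37.1 CPM (median 15.5) in Kir2.1 and 56.2 to 276 CPM (median 234) in mutant libraries, against 86.1, 219 and 33.03 CPM in controls. Of the 10 Kir2.1 libraries, 9 lay below the lowest control (log2 fold change -2.59 ± 0.49 (SE), adjusted p = 0.00358), and no mutant library was as low as the highest Kir2.1 one (log2 fold change -3.33 ± 0.41 (SE), adjusted p = 4.37e-07). The call against controls was lost without no-AAV library 2 (adjusted p = 0.478).

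Vip itself fell to 679 to 2759 CPM (median 1856) in Kir2.1 libraries, against 4560.3, 6377 and 4635 CPM in no-AAV libraries, with no overlap (log2 fold change -1.67 ± 0.37 (SE), adjusted p = 0.0268). Mutant libraries had 729.7 to 8871 CPM (median 5688), and their difference from controls was -0.10 ± 0.41 on the log2 scale. The difference between the vectors passed (log2 fold change -1.57 ± 0.29 (SE), adjusted p = 4.60e-04). The call against controls was near the threshold. It was lost without each no-AAV library (adjusted p = 0.0865, 0.244 and 0.0844), without Kir2.1 library 4 or 9 (0.0528 and 0.0555), with Xist as a covariate (0.0970) and in male-labelled libraries (0.404). Cck, cholecystokinin, had 8.66 to 319.7 CPM (median 71.2) against 161, 385 and 251 CPM in controls and did not pass (log2 fold change -1.33 ± 0.50 (SE), adjusted p = 0.419). Igf1, insulin-like growth factor 1, had 253 to 499 CPM (median 300.4) against 412, 401 and 414 CPM, with 8 of 10 libraries below the lowest control and no call (log2 fold change -0.26 ± 0.19 (SE), adjusted p = 0.707). Both were lower than in mutant nuclei (adjusted p = 0.0128 for Cck and 0.00177 for Igf1).

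Among genes of peptide maturation, 2 fell. Pcsk1, the convertase that cuts prohormones in secretory granules, had 18.95 to 42.3 CPM (median 31.6) in Kir2.1 and 43.5 to 139 CPM (median 77.6) in mutant libraries, against 75.1, 149 and 106 CPM without AAV. The Kir2.1 and no-AAV values did not overlap (log2 fold change -1.81 ± 0.26 (SE), adjusted p = 2.55e-05). Vgf, a granule protein induced by neurotrophins and activity, was at 0 to 9.05 CPM (median 1.71) in Kir2.1 libraries, with 0 counts in 2 of them, against 12.4, 27.2 and 12.2 CPM in controls (log2 fold change -2.71 ± 0.60 (SE), adjusted p = 0.0266). Mutant libraries had 13.9 to 56.5 CPM (median 29.05) of Vgf, and the vectors differed (log2 fold change -3.54 ± 0.50 (SE), adjusted p = 4.89e-06). The call of Vgf against controls was lost without each no-AAV library (adjusted p = 0.0599, 0.369 and 0.0584) and with libraries 1 and 6 among those left out (0.0557), with the replicate block (0.105) and in the 2 groups alone (0.653). Pthlh, parathyroid hormone-like hormone, had 18.4 to 44.1 CPM (median 23.3) against 76.5, 132 and 80.02 CPM (log2 fold change -1.85 ± 0.30 (SE), adjusted p = 3.90e-04); without no-AAV library 2 its adjusted p was 0.0523. Of 18 granule and processing genes, 2 fell, Pcsk1 and Vgf, beside 0.151% of all genes tested, and the list's median log2 fold change was -0.29.

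**Figure D2:**
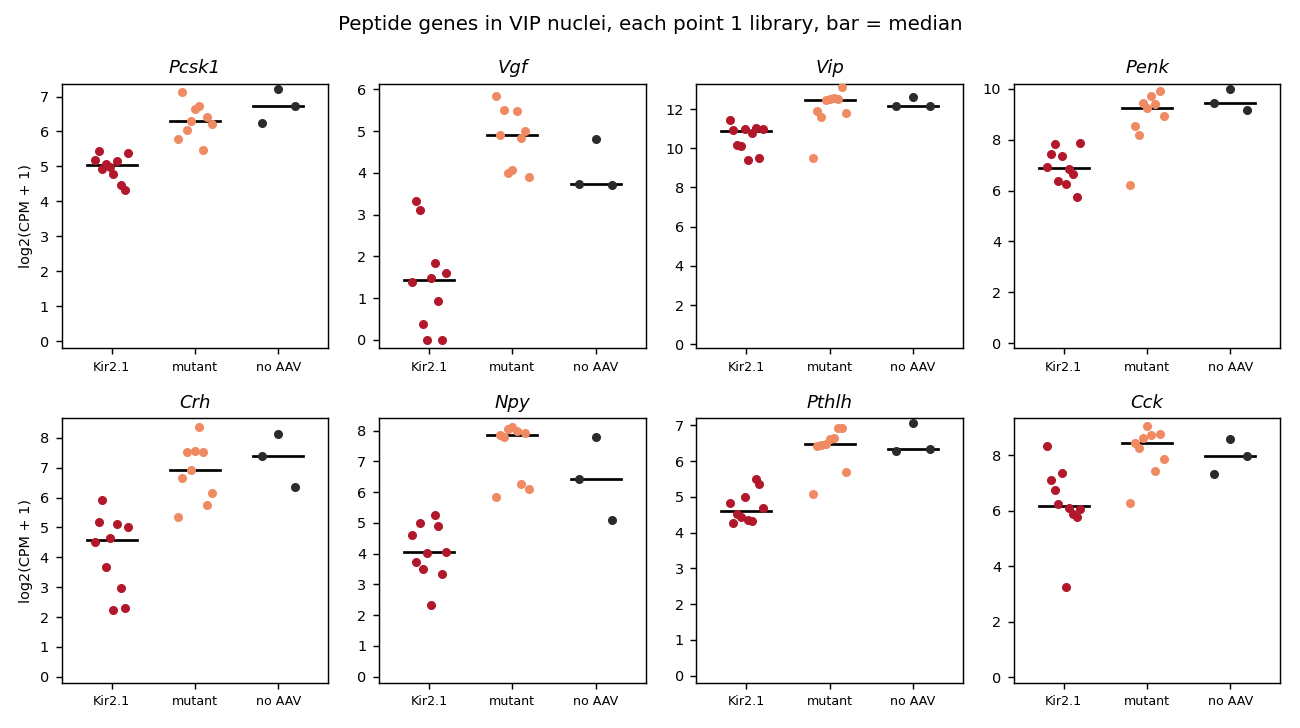
Each point is 1 library, with log2(CPM + 1) on the y axis and a bar at the median of the Kir2.1, mutant and no-AAV groups. The Kir2.1 points lie below all no-AAV points for Pcsk1, Vgf, Vip, Penk, Crh and Pthlh, and overlap them for Npy and Cck.

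Promoter stretches of Pcsk1 and Vip are shown because both genes fell and both hold the core of the cAMP response element, the site of the activity-regulated factor CREB. The sequences come from RefSeq promoter windows on GRCm38.p6, plus strand in both genes, from 130 to 11 bases before the start, with TGACGT or its reverse complement in capitals.
Pcsk1, chr13:75089727-75089846: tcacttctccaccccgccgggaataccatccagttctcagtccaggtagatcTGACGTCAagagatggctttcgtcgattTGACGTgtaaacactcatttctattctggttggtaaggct
Vip, chr10:5639088-5639207: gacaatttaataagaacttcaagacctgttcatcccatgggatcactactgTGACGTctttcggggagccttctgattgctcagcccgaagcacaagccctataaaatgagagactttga
In Pcsk1 the full palindrome TGACGTCA began 78 bases before the start, where 2 core matches overlap, and another core match began at 50 bases. In Vip 1 core match began 79 bases before the start. Promoters were found for 21 of the 32 lower and 8 of the 15 higher genes, and 7 motifs were searched on both strands of the 250 bases before the start. The core TGACGT was in 6 of the 21 lower and 0 of the 8 higher genes, and in 6.47% of all 32851 promoter windows. The full TGACGTCA, which contains it, was in 1 and 0, against 1.55%. The interferon-stimulated element core, TTTC and TTTC with 2 free bases between, was in 1 and 1, against 2.98%, and the AP-1 site TGACTCA in 1 and 0, against 4.46%. The TATA box TATAAA was in 5 and 2, against 12.4%, and the palindrome of GCC and GGC with 4 free bases between in 3 and 1, against 12.3%. The 10-base sterol regulatory element was in 0 of either, against 0.0731%. A gene counted if any of its promoter windows held a match, while the percentages are shares of single windows, so they are not like measures. The motifs were chosen after the calls were known, and a match describes letters in a window, not a bound site.

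Of 12 pan-GABAergic genes 2 fell, Dlx1 and Dlx6os1, and 0 rose, where 0.151% of all genes tested were called lower. Dlx1, a homeobox factor of GABAergic interneurons, had 18.4 to 64.2 CPM (median 36.3) in Kir2.1 and 63.5 to 124 CPM (median 84.5) in mutant libraries, against 131, 132 and 85.8 CPM in controls, with no overlap between Kir2.1 and controls (log2 fold change -1.69 ± 0.24 (SE), adjusted p = 2.70e-05). Dlx6os1, the Evf2 non-coding RNA of the Dlx5 and Dlx6 locus, had 112 to 222 CPM (median 137) against 549, 305 and 455 CPM (log2 fold change -1.54 ± 0.26 (SE), adjusted p = 6.69e-04). Gad1, which makes GABA, had 218 to 532 CPM (median 386) against 494, 588 and 511 CPM and did not pass (log2 fold change -0.50 ± 0.23 (SE), adjusted p = 0.532). Dlx1 and Dlx6os1 overlap transcripts on the opposite strand, and the Dlx1as transcript was called with Dlx1, so their reads cannot be separated with certainty.

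Cnmd, which encodes chondromodulin, had the smallest p among the lower genes. Its levels were 0 to 7.65 CPM (median 0.920) in Kir2.1 libraries, with 0 counts in 2, and 4.15 to 56.7 CPM (median 30.9) in mutant libraries, against 47.4, 29.05 and 82.7 CPM in no-AAV libraries. No Kir2.1 library reached the lowest control (log2 fold change -4.76 ± 0.60 (SE), adjusted p = 1.69e-06). Mir670hg, a long non-coding RNA named for the microRNA it hosts, had 4.50 to 21.8 CPM (median 12.2) in Kir2.1 and 85.4 to 193 CPM (median 99.9) in mutant libraries, against 60.97, 46.3 and 61.8 CPM. It was lower in Kir2.1 than in no-AAV nuclei (log2 fold change -2.27 ± 0.30 (SE), adjusted p = 3.80e-06), and lower than in mutant nuclei (log2 fold change -3.28 ± 0.24 (SE), adjusted p = 4.49e-14). Both genes were also lower than in non-transduced nuclei of the same vector's mice (log2 fold change -4.35 ± 0.51 (SE), adjusted p = 1.36e-07 for Cnmd, log2 fold change -2.99 ± 0.24 (SE), adjusted p = 3.72e-13 for Mir670hg).

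Further lower genes included membrane and signalling proteins. Pcdh8, a protocadherin of synapses also called arcadlin, had 12.8 to 40.6 CPM (median 33.04) against 112, 138 and 106 CPM (log2 fold change -2.02 ± 0.32 (SE), adjusted p = 2.01e-04). Egfr, the epidermal growth factor receptor, had 96.3 to 280.2 CPM (median 165) in Kir2.1 libraries and 374 to 554 CPM (median 475) in mutant libraries, against 410.1, 300.1 and 459 CPM (log2 fold change -1.26 ± 0.22 (SE), adjusted p = 0.00135). Pde10a, a phosphodiesterase that breaks down cAMP and cGMP, had 100.3 to 311 CPM (median 152) against 557, 371 and 538 CPM (log2 fold change -1.53 ± 0.30 (SE), adjusted p = 0.00510). None of the 3 overlapped the controls, and all 3 were lower than in mutant nuclei (adjusted p = 3.03e-04, 2.10e-08 and 2.88e-08). The call of Egfr was lost without no-AAV library 3 (adjusted p = 0.0584), and that of Pde10a without library 1 or 3 (0.0688 and 0.0676), and in male-labelled libraries (0.0631). Egfr lost it also in the 2 groups alone (0.0595). Cp, ceruloplasmin, had 33.2 to 120.4 CPM (median 47.6) against 158, 159.8 and 181 CPM (log2 fold change -1.62 ± 0.28 (SE), adjusted p = 0.00123). It was the only called gene of 10 tested on the reactive glia list, beside 0.222% of all genes tested. The list's median log2 fold change had the opposite sign, 0.98. Mlip, a lamin-interacting protein, had 12.4 to 79.6 CPM (median 34.8) against 83.1, 108 and 134 CPM (log2 fold change -1.53 ± 0.27 (SE), adjusted p = 0.00135), with the call lost without no-AAV library 3 (adjusted p = 0.0596) and in the 2 groups alone (0.148).

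Among the higher genes, Kcnc1 was the 1 that also exceeded the mutant group. It encodes the potassium channel Kv3.1 of fast-spiking neurons, and had 173 to 288 CPM (median 199) in Kir2.1, 67.2 to 208 CPM (median 93.4) in mutant and 74.3 to 129 CPM (median 113) in non-transduced libraries, against 143, 85.99 and 53.7 CPM in no-AAV libraries. The Kir2.1 range lay above all controls (log2 fold change 1.20 ± 0.28 (SE), adjusted p = 0.0397), and Kcnc1 was higher than in mutant nuclei (log2 fold change 1.02 ± 0.18 (SE), adjusted p = 3.65e-04). The call against controls was lost without no-AAV library 2 or 3 (adjusted p = 0.320 and 0.416) and without Kir2.1 library 3, 4, 6, 7, 8 or 9 (up to 0.0632), with no filter on low counts (0.0630), in the 2 groups alone (0.113) and in male-labelled libraries (0.482). Of 36 other potassium channel genes it was the only call, where 0.222% of all genes tested were called in either direction. Of 34 sodium, calcium and HCN channel genes, 21 inhibitory-synapse genes and 29 glutamate receptor genes 0 were called. At that share, 0 calls in a list of this length says little of its genes. The median log2 fold changes of these lists were 0.05, 0.15, 0.02 and 0.12.

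As a summed list, immediate early genes were lower in Kir2.1 than in no-AAV libraries, while Fos and Npas4 were at or near 0 in most libraries of both. The list of 30 summed to 63.8 to 155.2 CPM in Kir2.1 and 159.6 to 193.5 CPM in no-AAV libraries, without overlap. Mutant libraries summed to 158.5 to 392.1 CPM, and non-transduced libraries of Kir2.1-injected mice to 107.4 to 354.6 CPM, which overlaps the Kir2.1 range. The no-AAV sums lay within both of these ranges, and the sums were not tested. Fos had 0 counts in 6 of 10 Kir2.1 libraries and in all 3 no-AAV libraries, and reached 6.55 CPM in Kir2.1 library 3. Mutant libraries had 4.28 to 34.6 CPM (median 20.4) of Fos. In VIP nuclei that were not transduced the mean of Fos was 11.4 CPM in Kir2.1-injected and 8.58 CPM in mutant-injected mice. The Kir2.1 and no-AAV groups did not pass a test (adjusted p = 0.488), whereas Kir2.1 nuclei were lower than mutant nuclei (log2 fold change -4.29 ± 0.91 (SE), adjusted p = 0.00385). Npas4, a neuron-specific early factor, had 0 counts in 9 of 10 Kir2.1 libraries and in 2 of 3 no-AAV libraries, against a median of 2.98 CPM in mutant libraries. It too was lower than in mutant nuclei (log2 fold change -6.40 ± 1.25 (SE), adjusted p = 0.00115) with no call against no-AAV nuclei (adjusted p = 0.957). Mutant against no-AAV nuclei did not pass for either gene (adjusted p = 0.206 and 0.479).

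Nr4a1, an orphan nuclear receptor, had 0.122 to 11.5 CPM (median 4.09) in Kir2.1 and 15.8 to 66.1 CPM (median 25.1) in mutant libraries, against 12.6, 17.1 and 11.2 CPM in controls. Although 9 of 10 Kir2.1 libraries were below the lowest control, it did not pass (log2 fold change -1.55 ± 0.51 (SE), adjusted p = 0.281). Dusp6, a phosphatase of ERK, had 0 to 16.5 CPM (median 1.67) against 19.7, 42.99 and 46.3 CPM and was the 1 called gene of 24 early genes tested (log2 fold change -3.11 ± 0.73 (SE), adjusted p = 0.0428). That call was lost in 10 of the 13 fits that each left out 1 library, among them those without no-AAV library 1, 2 or 3 (adjusted p = 0.0688, 0.242 and 0.202) and in the 2 groups alone (0.356), with the block (0.0806), with Xist as a covariate (0.0591) and without the libraries that stood apart (0.0527). Egr1 had 0 to 25.3 CPM (median 7.60) against 5.38, 3.77 and 14.3 CPM, Arc 0 to 7.34 CPM (median 2.34) against 4.18, 6.89 and 0 CPM, and Bdnf 0 to 4.28 CPM (median 0.282) against 0, 0 and 3.61 CPM, and none of the 3 passed. The early list's median log2 fold change was -0.30, and 1.02 for the mutant against the same controls. The early list's 1 call of 24 stood beside 0.222% of all genes tested. Of 27 later activity genes 3 fell, Pcsk1, Pthlh and Vgf, beside 0.151% of all genes tested, with a median of -0.64.

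**Figure D3:**
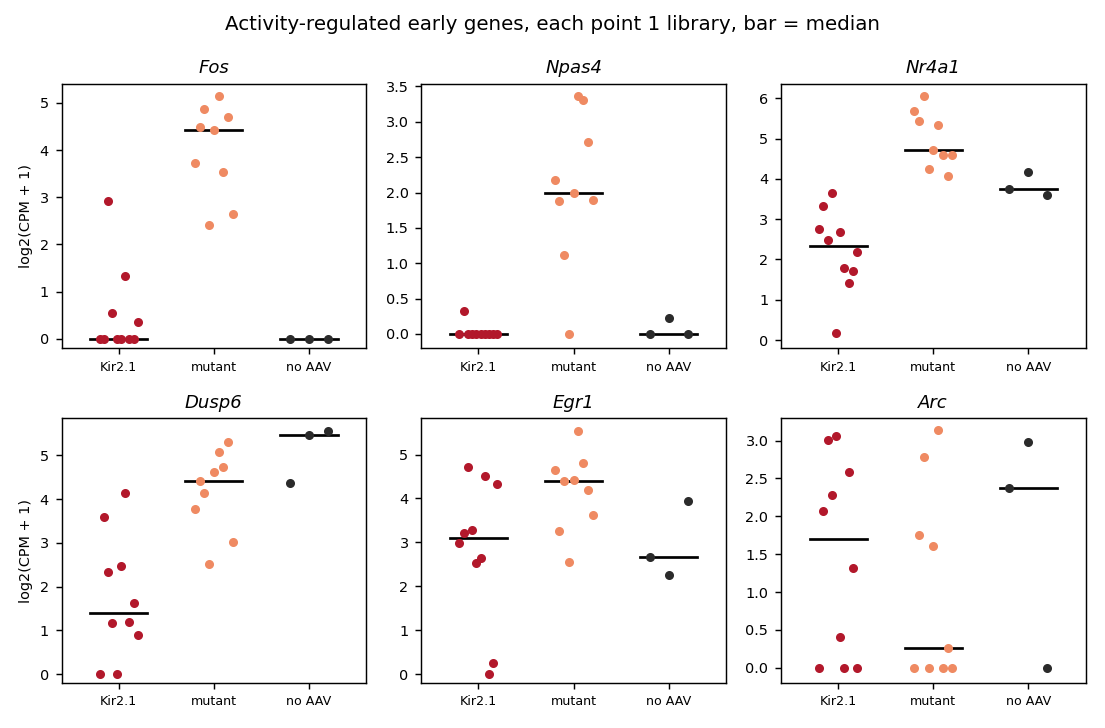
Each point is 1 library, with log2(CPM + 1) on the y axis and a bar at the median of the Kir2.1, mutant and no-AAV groups. Fos and Npas4 lie at or near 0 in Kir2.1 and no-AAV libraries and higher in most mutant libraries, and the Dusp6 median is lower in Kir2.1 than in the other two groups, although the Kir2.1 and mutant points overlap.

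Genes of the immune system, Igkc, Ighg2b, Ighg2c, Cd74 and B2m, were also among the higher calls. Igkc, the constant region of the antibody kappa chain, had 1.97 to 133 CPM (median 51.6) in Kir2.1, 10.5 to 98.5 CPM (median 36.8) in mutant and 9.17 to 533 CPM (median 35.9) in non-transduced libraries, against 0, 0 and 0.822 CPM in no-AAV libraries. All 10 Kir2.1 libraries exceeded all controls (log2 fold change 7.51 ± 1.37 (SE), adjusted p = 0.00190), and Igkc was called for the mutant as well (log2 fold change 7.14 ± 1.36 (SE), adjusted p = 0.0204). The Kir2.1 call was lost without no-AAV library 1 or 2 (adjusted p = 0.0536 and 0.0697). The Gm30211 transcript overlaps Igkc on the same strand and carried nearly the same counts. Ighg2b and Ighg2c, antibody heavy chains, and Cd74, the MHC class II invariant chain, had 0 counts in all 3 no-AAV libraries. Over a floor of 3 counts in the no-AAV group, Kir2.1 means were 157-fold for Ighg2b, 156-fold for Ighg2c and 87.7-fold for Cd74 (adjusted p = 0.0266, 0.0400 and 0.0207). The floor covers counting error alone, not the spread between libraries. Mutant means over the same floor were 83.4-fold, 110-fold and 38.2-fold, without a call (adjusted p = 0.206 for each). Non-transduced nuclei of Kir2.1-injected mice had means of 21.5, 27.8 and 12.9 CPM, beside 27.4, 27.3 and 15.3 CPM in Kir2.1 nuclei. For none of these genes did Kir2.1 differ from mutant or non-transduced nuclei at the threshold. Ighg2b and Cd74 were each at 0 in 2 of the 10 Kir2.1 libraries, and all 3 calls were lost without no-AAV library 1, 2 or 3 (adjusted p from 0.123 for Cd74 without library 1 to 0.244 for Ighg2c without library 2). In the 2 groups alone the calls of Cd74 and Ighg2b were lost (0.192 and 0.238). Ighg2c also lost its call without Kir2.1 library 1 or 9 (0.0547 and 0.0580).

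B2m, the light chain of MHC class I, had 45.9 to 363 CPM (median 106) in Kir2.1, 63.5 to 222 CPM (median 116) in mutant and 29.3 to 219.8 CPM (median 89.6) in non-transduced libraries, against 19.7, 27.1 and 14.1 CPM in no-AAV libraries. The groups did not overlap (log2 fold change 2.98 ± 0.63 (SE), adjusted p = 0.0154), and neither Kir2.1 against mutant nor Kir2.1 against non-transduced nuclei passed (adjusted p = 0.851 and 0.425). The B2m call was lost without each no-AAV library (adjusted p = 0.123, 0.0944 and 0.160). Patl2 overlaps B2m on the opposite strand with near-identical counts and was called with it. H2-K1, a class I heavy chain, had 51.5 to 261 CPM (median 77.3) in Kir2.1 libraries against 12.4, 22.6 and 21.4 CPM, without overlap but without a call (log2 fold change 2.55 ± 0.79 (SE), adjusted p = 0.246). Against non-transduced nuclei, at 1.49 to 90.1 CPM (median 19.97), it was higher (log2 fold change 2.03 ± 0.47 (SE), adjusted p = 0.0186). Of 16 MHC class I genes 1 was called higher, where 0.0707% of all genes tested were. The list's median log2 fold change was 1.93, beside 1.25 for the mutant against the same controls. Of 22 interferon and innate genes 0 were called, with medians of 1.71 and 1.17.
The B2m promoter is shown for its match to the interferon-stimulated element core, in capitals as the reverse complement, 139 bases before the start (RefSeq, GRCm38.p6, plus strand, from 190 to 71 bases before the start).
B2m, chr2:122147497-122147616: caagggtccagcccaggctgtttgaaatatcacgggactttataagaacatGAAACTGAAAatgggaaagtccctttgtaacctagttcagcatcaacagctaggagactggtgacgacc

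**Figure D4:**
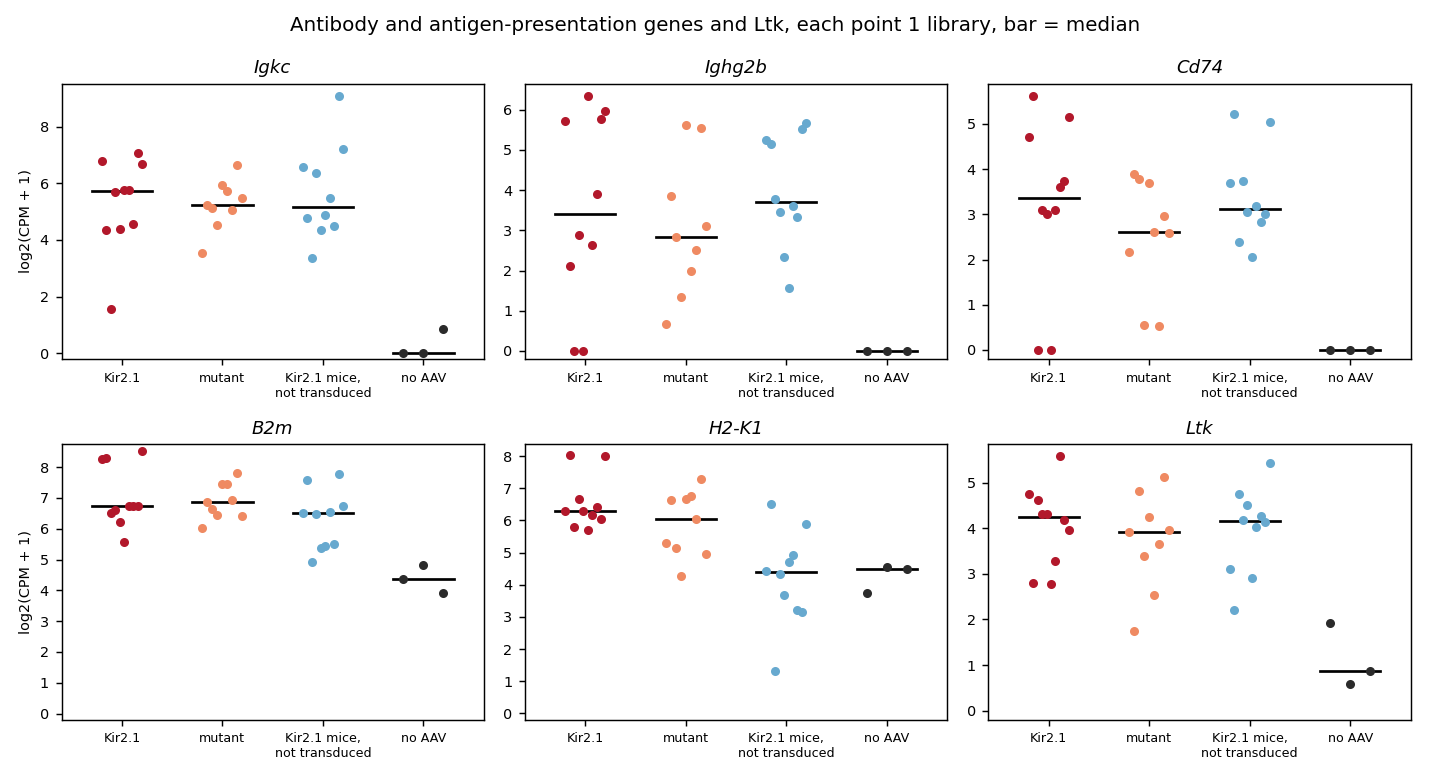
Each point is 1 library, with log2(CPM + 1) on the y axis and a bar at the median of the Kir2.1, mutant, non-transduced and no-AAV groups. Igkc, B2m and Ltk are higher in all 10 Kir2.1 libraries than in every no-AAV library, and the mutant and non-transduced ranges overlap the Kir2.1 range.

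Marker genes of other cells were read beside these calls. Of 15 lymphocyte markers, 5 had 0 counts in every Kir2.1 library, among them Cd3e and Cd8a, and 10 had 0 counts in every no-AAV library. A gene is more easily at 0 throughout 3 no-AAV libraries than throughout 10 Kir2.1 libraries, so such counts are not alike here. The summed level of the list was 8.26 to 199 CPM in Kir2.1 libraries and 0 to 17.1 CPM in no-AAV libraries, and 6.29 to 96.1 CPM and 0 to 16.3 CPM without its member Igkc. The 16 microglial markers summed to 129 to 311 CPM in Kir2.1 and 119 to 214 CPM in no-AAV libraries, with Tmem119 and Ptprc at 0 in the controls and 0 genes called. Astrocyte markers summed to 528 to 884 CPM and 614 to 894 CPM, oligodendrocyte markers to 140.0 to 575 CPM and 283 to 631 CPM, in the same order of groups. Excitatory neuron markers summed to 1444 to 2302 CPM in Kir2.1 and 1222 to 1416 CPM in no-AAV libraries. Of these, 0 of 19 were called, beside 0.222% of all genes tested, with a median log2 fold change of -0.07. The excitatory sums did not overlap, but without Camk2a they were 635 to 1222 CPM and 578 to 649 CPM, which overlap. Camk2a, a kinase of excitatory synapses, had 784 to 1286 CPM (median 925) against 793, 643 and 624.9 CPM (log2 fold change 0.53 ± 0.17 (SE), adjusted p = 0.272). The part of other cells in the immune and peptide results was not tested.

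Ltk, a receptor tyrosine kinase, and Atp5l, a subunit of ATP synthase, completed the higher protein-coding calls. Ltk had 5.88 to 47.03 CPM (median 17.96) in Kir2.1 and 2.37 to 33.6 CPM (median 14.1) in mutant libraries, against 2.79, 0.492 and 0.822 CPM (log2 fold change 3.78 ± 0.82 (SE), adjusted p = 0.0207), and its call was lost without no-AAV library 2 or 3 (adjusted p = 0.244 and 0.184). Atp5l had 9.32 to 36.9 CPM (median 22.5) and 9.78 to 33.4 CPM (median 22.3), against 3.99, 1.48 and 9.69 CPM (log2 fold change 2.27 ± 0.52 (SE), adjusted p = 0.0328), with the call lost without no-AAV library 1 or 2 (0.198 and 0.398) or without Kir2.1 library 1, 2, 5 or 10 (up to 0.0564). The non-coding AC148019.2 had 0.143 to 14.9 CPM (median 8.64) in Kir2.1 libraries and 1 count in all in the controls. That is a ratio of 115 with an exact 95% counting interval of 20.5 to 4536 (adjusted p = 0.0217). The lowest Kir2.1 value of AC148019.2 lay within the no-AAV range, and its call was lost without each no-AAV library (0.145, 0.242 and 0.0827), in the 2 groups alone (0.2495) and in male-labelled libraries (0.25003). In the 2 groups alone the calls of Ltk and Atp5l were lost too (0.0868 and 0.282), and Atp5l also in male-labelled libraries (0.392) and with no filter (0.0583). For none of the 3 did Kir2.1 and mutant nuclei pass a test (adjusted p = 0.902, 0.908 and 0.881).

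Sterol genes did not pass against no-AAV nuclei. Of 24 genes of cholesterol synthesis and uptake 0 were called, beside 0.222% of all genes tested, with a median log2 fold change of 0.61. Fdps, farnesyl diphosphate synthase, had 32.5 to 100.0 CPM (median 69.5) in Kir2.1 and 7.26 to 30.2 CPM (median 19.4) in mutant libraries, against 43.2, 47.1 and 21.5 CPM in controls (log2 fold change 0.88 ± 0.38 (SE), adjusted p = 0.515). In the test against mutant nuclei 12 of the 24 were higher, Fdps among them (adjusted p = 3.30e-06), where 0.354% of all genes were higher. Of the 3 no-AAV values of Fdps, 2 lay within the Kir2.1 range and 1 within the mutant range.

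**Figure D5:**
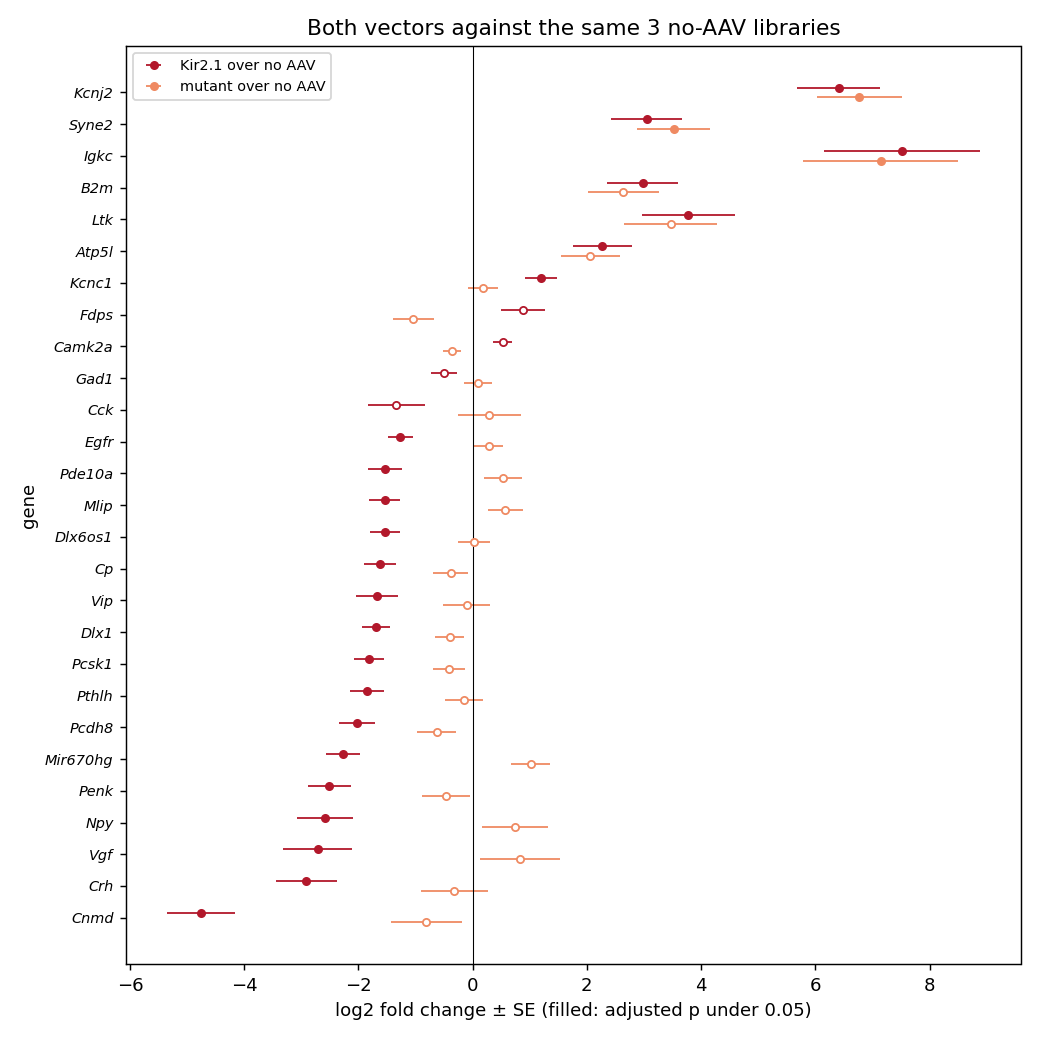
Points are log2 fold changes with SE bars of 27 named genes, Kir2.1 over no AAV above and mutant over no AAV below in each pair, both against the same 3 libraries, and filled points had an adjusted p under 0.05. Kcnj2, Syne2 and Igkc are filled for both vectors. B2m, Ltk, Atp5l, Kcnc1 and the genes from Egfr down are filled for Kir2.1 alone.

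Remaining lists and calls were few. The p53, unfolded protein, ribosomal protein, mitochondrially encoded, and MEF2 and class IIa HDAC lists held 0 calls, beside 0.222% of all genes tested. Gfap, an astrocyte filament, had 5.30 to 44.5 CPM (median 23.6) against 18.7, 0 and 5.59 CPM and no call. Among the lower genes outside the rule for named genes, Slc10a6, Gm13684, Ggt5 and Gm48759 had 0 counts in all 10 Kir2.1 libraries, and each was also at 0 in at least 1 no-AAV library. These 4 were named after their values were seen. Fam184b, Socs5, Car4, Rab6a, Cdh13, Gng4 and Col24a1, likewise named afterwards, were lower by log2 fold changes between -2.87 and -0.99. Each of these 7 calls was lost without at least 1 no-AAV library and in the 2 groups alone, with adjusted p of 0.0966 for Rab6a to 0.616 for Gng4 in that fit. Of the 22 alternative settings Gng4 was called in 7, Col24a1 in 9 and Rab6a in 12, and in male-labelled libraries Cdh13 had an adjusted p of 0.640. Ggt5 and Gm48759 were called in 4 and 1 of the 22. The other lower calls were A830012C17Rik, Dlx1as, 2610316D01Rik and AC118642.2, and the other higher calls were Patl2, Gm30211, Gm37254 and Rps13-ps1, a ribosomal pseudogene whose reads may be shared with its parent gene.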

How the data were processed

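RNA of sorted VIP nuclei was measured in libraries whose values are raw counts, whole numbers per gene, in the table the authors deposited (55335 genes, 79 libraries, not normalized). Tools named in the submitters' processing notes are cutadapt 1.18, STAR 2.5.3a and HOMER 4.9.1, with mm10 as genome. The annotation, the counting settings and whether strand was used are not stated there. The labels mention no molecular identifiers for the PCR products. Floors and intervals describe counting error only. Of the gene identifiers 55154 matched GENCODE names on GRCm38 and 181 did not, and 0 library pairs were identical.

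All 41 VIP libraries in 5 groups were fitted together with edgeR 4.0.16 in R 4.3.3 (quasi-likelihood F test, TMM scaling, filterByExpr with minimum count 10 and total 15, two-sided). P-values were adjusted by Benjamini-Hochberg across 21207 genes, with a threshold of 0.05. SE is the log2 fold change over the square root of F, and CPM use the TMM-adjusted library size. No label ties a replicate number to an animal, and the spread behind each p-value may be technical in part.

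Named genes were Kcnj2, Syne2 and Vip, the 12 higher and 12 lower genes with the smallest p among called genes with at least a 2-fold change and the same direction without each library and in male-labelled libraries (Gm and Rik names and sex-linked genes left out), up to 4 called genes of each of 30 lists, and a set of activity, peptide, sterol and immune genes, a few of which are not reported here. The members and lists were chosen with earlier results of these data known. Alternatives were DESeq2 1.42.0 (scaling and test), no filter, only the groups compared, sex terms, a replicate block and each library left out. Leaving out the libraries with a correlation under 0.91, using Xist as a covariate and summing marker lists without 1 member were chosen after seeing the data.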

Additional observations from a re-analysis of the deposited data

Results flagged for a closer look

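In 6 of the 47 genes named by rule, 1 Kir2.1 library lay far from the other 9 by Dixon's criterion, which flags about 1 in 20 groups by chance. Only the Kir2.1 group was examined. Library 8 had 47.0 CPM of Ltk, with the next at 26.0, and library 9 had 100.4 CPM of Ighg2c, with the next at 45.8. Library 2 had 120.4 CPM of Cp, with the next at 68.7, and was the 1 library with Npas4, at 0.255 CPM. Library 3 had 6.55 CPM of Fos, with the next at 1.53. Library 1, which stood apart in its profile, had 319.7 CPM of Cck, with the next at 163.5.

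Igkc was also present in libraries outside these comparisons. Libraries titled as all nuclei, not transduced, of Kir2.1-injected mice had a median of 99.2 CPM on raw totals (8.38 to 734.8, 10 libraries). The 3 no-AAV libraries of all nuclei had 0, 0 and 2.19. The difference was not tested here.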

How the results depend on the processing

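Higher and lower calls of Kir2.1 against no-AAV nuclei, 15 and 32, were 7 and 16 in a fit of the 2 groups alone, and 10 and 15 in male-labelled libraries. DESeq2 called 111 higher and 44 lower. Leaving out 1 library at a time gave 3 to 15 higher and 14 to 32 lower, the lowest counts without a no-AAV library. Of the 47 genes, 1 higher and 7 lower were called under all 22 settings. Scaling by DESeq2 size factors kept all 47, and leaving out the libraries that stood apart gave 17 and 41.

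Replicate numbers did not pair Kir2.1 with no-AAV libraries (3 pairs, correlations of deviations from -0.055 to -0.012), and none of the 3 matched its own number best. With the replicate number as a block, 21 genes were higher and 58 lower. Mutant against no-AAV nuclei then gave 34 calls, 18 higher and 16 lower, in place of 6. That mutant count was 63 by DESeq2, 11 in the 2 groups alone, 10 in male-labelled libraries and 1 to 3 with 1 no-AAV library left out at a time. Kir2.1 against mutant nuclei gave 294 calls, and 68 in male-labelled libraries. Kir2.1 against non-transduced nuclei gave 163, and 105 in the 2 groups alone and 13 in male-labelled libraries. Between these 2 groups the numbers did not meet the criterion for pairs (10 pairs, correlations from 0.006 to 0.119), but 6 of the 10 matched their own number best and same-numbered libraries shared their Xist state in 10 of 10, a hint from the data and not the design. With the replicate block this comparison gave 131 calls, and 153 within Kir2.1 mice alone.

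Signs turned for 7 genes that did not pass the test, of which 6 passed it under no setting. On the log2 scale, Npas4 was -0.66, and 0.15 with the replicate block and -1.89 to 1.21 with 1 library left out. Egr1 was 0.36, and -0.19 in male-labelled libraries. Arc was -0.38, and -0.97 to 0.43 with 1 library left out. Bdnf was -0.16, with 0.40 under the block, 0.12 without the libraries that stood apart and -0.76 to 5.71 with 1 left out. Kcnj4 was 0.95, and -4.65 in male-labelled libraries, and Kcnj12 was 0.19, and -0.30 to 0.89 with 1 left out. Xist was 10.30, and -0.43 with its own level as a covariate, and passed the test by DESeq2 and with the block (lowest adjusted p = 0.0149). In the covariate fit Xist is adjusted for itself, so nothing is read from its turned sign. The cause of the other changes was not tested. Sex labels and Xist disagreed in several libraries, so the sex alternatives do not separate sex cleanly, and with 3 controls a single library decides many calls.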
